A study of Homo sapiens with 6 samples.

Results

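The aminoacyl-tRNA synthetase genes of H460 cells were examined in RNA sequencing of control and fluoxetine-treated cultures. They were 36 genes of this enzyme family picked by symbol from a deposited count table of 31762 genes. Of these, 20 encode the cytosolic enzymes and 16, with symbols ending in 2, the mitochondrial ones. No symbol was repeated in the table, and all 36 genes passed the filter on low counts. H460 is a human lung carcinoma cell line, with the genotype given as WT, and it is the single line sequenced here. The treated group received 20 µM fluoxetine, a selective serotonin reuptake inhibitor, for 24 h, and the control group is labelled only as control, with no vehicle named. Each group had 3 libraries, and nothing in the labels says that they came from separate cultures, so the p-values measure the spread between these libraries alone. In bulk RNA, a change in some cells and a smaller change in all cells cannot be told apart.

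Aminoacyl-tRNA synthetases attach each amino acid to its tRNA and so supply the ribosome with charged tRNAs. The cytosol and the mitochondrion each need charged tRNAs, and nuclear genes encode the synthetases of both. KARS and GARS supply both compartments, EPRS carries the enzymes for glutamate and proline in a single protein, and several cytosolic enzymes are held together in a multi-synthetase complex. Many cytosolic members are known targets of ATF4, the transcription factor that is translated when the eIF2alpha kinases report amino acid shortage or endoplasmic reticulum (ER) stress. The study asked how fluoxetine acts on lung cancer cells and followed ER stress and ATF4.

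The libraries held 16157507 to 27823667 counts each, and every fluoxetine library was shallower than every control library. The part of this depth difference in the results was not tested. The label of an epithelial carcinoma was checked with markers. The keratin genes KRT8, KRT18 and KRT19 reached 286 to 2100 CPM (counts per 1000000 of the scaled library) over the 6 libraries, while EPCAM and CDH1 stayed at or under 0.573 CPM and the lung lineage markers NKX2-1, SFTPC and NAPSA at or under 0.408 CPM. Of the blood markers PTPRC and CD14, the endothelial markers PECAM1 and VWF and the fibroblast markers COL1A1, COL1A2 and DCN, CD14 (1.62 to 2.33 CPM) and COL1A1 (3.21 to 5.35 CPM) were above 1 CPM in every library. SFTPB, CD3E and CDH5 were not analysed here.

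Levels of the synthetase genes spanned a wide range in control cells. To compare genes, CPM was divided by the combined length of all annotated exons of each gene in GENCODE release 29, over all its transcripts. The order of the genes depends on this length, and the length of single transcripts was not tried. On that scale the cytosolic genes had a median of 37.4 CPM per kb in control cells and the mitochondrial genes one of 6.17. IARS2, the mitochondrial isoleucyl-tRNA synthetase, had the highest level of all 36, at 109 CPM per kb (102.9 to 116 over the 3 control libraries). It stood apart from the other mitochondrial genes, since 18 of the 20 cytosolic genes lay above each of the other 15. RARS, the arginine enzyme, came next at 90.2 CPM per kb, and its range of 87.2 to 93.4 overlapped that of FARSB (82.8 to 87.4), which in turn overlapped that of EPRS (76.1 to 84.1). YARS, at 17.7 CPM per kb, fell within the range of mitochondrial RARS2 (17.2 to 19.3). CARS, the cysteine enzyme, was the lowest cytosolic gene at 3.52 CPM per kb (3.15 to 3.84).

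SARS2, the mitochondrial serine enzyme, was the lowest of all at 0.151 CPM per kb. It held 6, 16 and 10 counts in control replicates 1 to 3 and 11, 12 and 8 counts in fluoxetine replicates 1 to 3. SARS2 shares 1492 of its 3231 exon bases (46.2%) with another protein-coding gene on the same strand, AC011455.2, and how the counting treated reads in shared exons is not given in the sources used here. Its level is therefore uncertain. VARS2 shares 22.0% of its exon bases with GTF2H4 on the same strand. The remaining members had mean counts of 82.7 (PARS2) to 8783 (EPRS) per library.

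**Figure D1:**
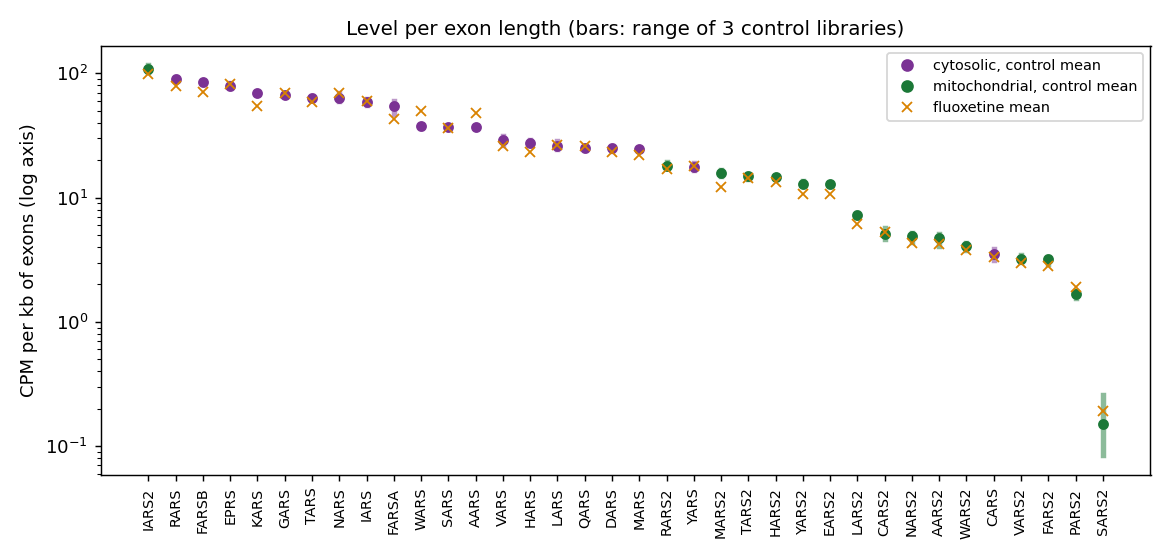
Level of the 36 genes per exon length in control and fluoxetine libraries (CPM per kb, log axis), in order of the control mean; vertical bars give the range of the 3 control libraries. IARS2 leads the order at 109 CPM per kb, cytosolic genes fill the next 18 places, and SARS2 lies far below the rest at 0.151.

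Fluoxetine treatment moved few of these genes, and none of them by much. In the quasi-likelihood test of edgeR, adjusted by Benjamini-Hochberg over 15646 genes, 7 of the 36 genes had an adjusted p-value under 0.05, which is 19.4% of them against 13.1% of all tested genes. WARS and AARS were upregulated, and KARS, FARSA, FARSB, MARS2 and EARS2 were downregulated. The upregulated share was 5.56% against 7.76% of all tested genes, and the downregulated share was 13.9% against 5.32%. At a fold change of at least 2, which 1.39% of all tested genes reached, no member passed. At an unadjusted p-value under 0.05, 12 genes passed (33.3%, against 28.7% of all tested genes), of which 2 were higher (5.56%, against 15.8%) and 10 were lower (27.8%, against 12.9%). DESeq2 and limma-voom called the same 7 genes. The number called depended on single libraries. It was 5 without control replicate 1, 3 without control replicate 2, 9 without control replicate 3, 1 without fluoxetine replicate 1, 8 without fluoxetine replicate 2 and 2 without fluoxetine replicate 3. The calls over all tested genes also changed. They were 1214 higher and 833 lower with all libraries, 1627 and 2006 without control replicate 3, and 409 and 163 without fluoxetine replicate 1. Without fluoxetine replicate 1, WARS was the member called, and 0 members were called lower.

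The balance of the family was towards lower levels. The median log2 fold change was -0.11 over the 36 genes, beside 0.03 over all tested genes, and 24 genes (66.7%, against 45.8%) were below 0. It was -0.06 over the cytosolic genes, of which 9 were above and 11 below 0, and -0.14 over the mitochondrial genes, of which 3 were above and 13 below. The groups did not overlap for 16 genes (44.4%, against 31.9% of all tested genes), and 14 of those were lower with fluoxetine.

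**Figure D2:**
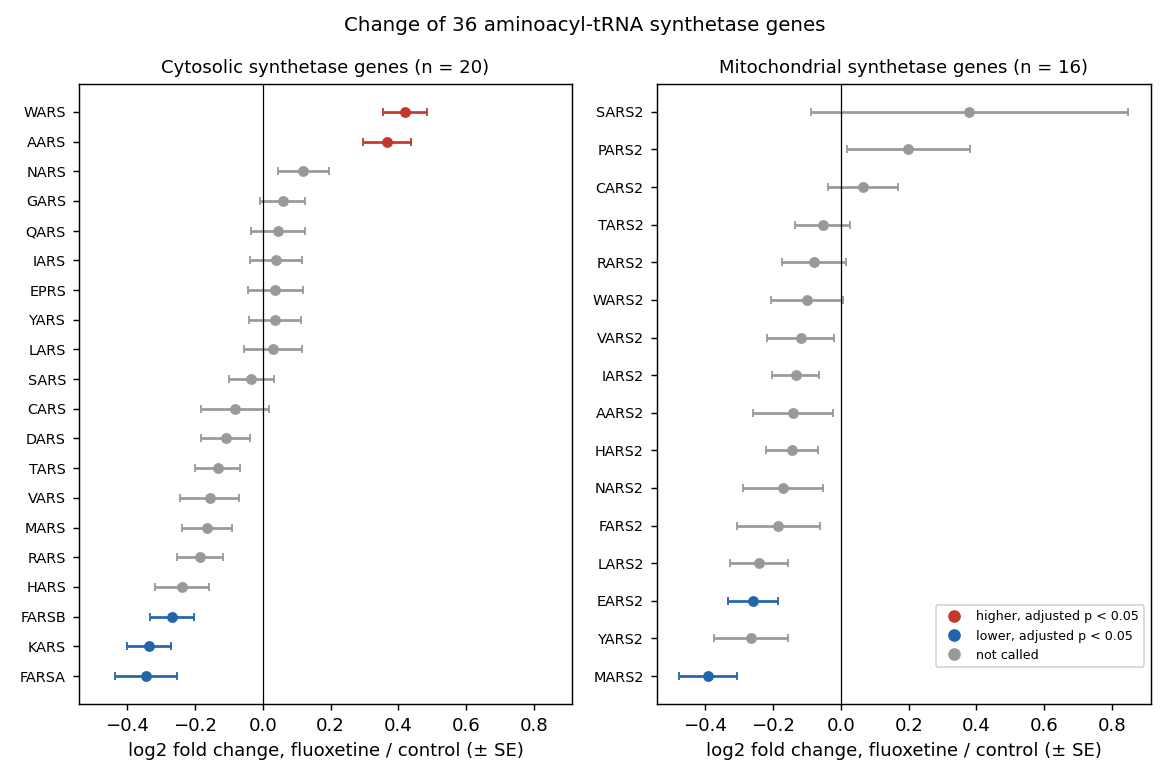
log2 fold change of fluoxetine over control with its SE for the 20 cytosolic (left) and 16 mitochondrial genes (right), coloured by the edgeR call. WARS (0.42) and AARS (0.37) stand apart at the top of the cytosolic panel, and the mitochondrial panel leans to the left of 0 with MARS2 (-0.39) lowest.

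WARS and AARS were the upregulated members. WARS (ENSG00000140105, chromosome 14, 100333788 to 100376805, minus strand, GRCh38) encodes the cytosolic tryptophanyl-tRNA synthetase, which is also known as an interferon-induced gene. Its level was 246, 229.6 and 239.7 CPM in control replicates 1 to 3 and 311, 320.2 and 325 CPM in fluoxetine replicates 1 to 3. Every fluoxetine library was thus above every control library, and the replicates of each group lay close together. The control mean was 238 ± 8.22 CPM and the fluoxetine mean 319 ± 7.37 CPM (SD, n = 3 each), a rise of 33.7% (log2 fold change 0.42, SE 0.07, edgeR adjusted p = 0.00295). WARS stayed past the threshold under all 13 alternatives, with adjusted p-values of at most 0.0358. It shares 287 exon bases with WDR25 on the other strand, which had a mean count of 327 against 5428 for WARS.

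AARS (ENSG00000090861, chromosome 16, 70252295 to 70289543, minus strand) encodes the cytosolic alanyl-tRNA synthetase. Its level was 169.9, 166 and 163 CPM in control replicates 1 to 3 and 209, 206 and 229 CPM in fluoxetine replicates 1 to 3, so the groups did not overlap and fluoxetine replicate 3 was the highest. The mean rose by 28.8%, with 166 ± 3.50 CPM for control and 214 ± 12.5 CPM for fluoxetine (SD, n = 3 each; log2 fold change 0.37, SE 0.07, edgeR adjusted p = 0.00837). The rise of AARS lost the call in edgeR fits without control replicate 2 (adjusted p = 0.0639), without fluoxetine replicate 1 (0.0556) and without fluoxetine replicate 3 (0.0809).

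KARS fell. KARS (ENSG00000065427, chromosome 16, 75627474 to 75648643, minus strand) encodes the lysyl-tRNA synthetase of both compartments, from alternative transcripts that gene counts do not separate. Its level was 285, 281 and 283 CPM in control replicates 1 to 3 and 217, 231 and 224 CPM in fluoxetine replicates 1 to 3. The control libraries were almost level and the groups lay far apart relative to their spread. The control mean of 283 ± 2.09 CPM stood against 224 ± 6.80 CPM with fluoxetine (SD, n = 3 each), a change of -20.7% (log2 fold change -0.33, SE 0.06, edgeR adjusted p = 0.00814). The call was lost without fluoxetine replicate 1 (edgeR adjusted p = 0.0608). KARS shares 176 exon bases with TERF2IP on the other strand, and whether the counting used strand is not given in the sources used here.

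FARSA and FARSB encode the alpha and beta subunits of the cytosolic phenylalanyl-tRNA synthetase, and both fell. FARSB (ENSG00000116120, chromosome 2, 222570536 to 222656337, minus strand) had 283, 279 and 294 CPM in control replicates 1 to 3 and 234, 246 and 231 CPM in fluoxetine replicates 1 to 3, without overlap. It changed by -0.27 on the log2 scale (SE 0.07, edgeR adjusted p = 0.0248). FARSA (ENSG00000179115, chromosome 19, 12922479 to 12934037, minus strand) had 145, 136 and 115 CPM in control replicates 1 to 3 and 99.5, 108 and 104 CPM in fluoxetine replicates 1 to 3. Control replicate 3 of FARSA lay nearer to the fluoxetine libraries than to the other control libraries, although the groups did not overlap. It changed by -0.34 on the log2 scale (SE 0.09, edgeR adjusted p = 0.0345). The ratio of FARSA to FARSB in CPM was 0.464 ± 0.0636 (SD, n = 3) in control and 0.439 ± 0.0134 (SD, n = 3) in fluoxetine libraries, a difference within the spread of the control libraries. The call of FARSB was lost without fluoxetine replicate 1 (edgeR adjusted p = 0.112) and without fluoxetine replicate 3 (0.116), and that of FARSA without control replicate 1 (0.0700), control replicate 2 (0.0929), fluoxetine replicate 1 (0.143) or fluoxetine replicate 3 (0.0872).

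Of the mitochondrial enzymes, those for methionine and glutamate fell. MARS2 (ENSG00000247626, chromosome 2, 197705369 to 197708387, plus strand) encodes the mitochondrial methionyl-tRNA synthetase. It had 47.9, 50.5 and 45.5 CPM in control replicates 1 to 3 and 35.3, 38.0 and 36.3 CPM in fluoxetine replicates 1 to 3, and the groups did not overlap. Its change of -23.7% was the largest fall among the 36 genes (log2 fold change -0.39, SE 0.09, edgeR adjusted p = 0.0154). EARS2 (ENSG00000103356, chromosome 16, 23522014 to 23557731, minus strand) encodes the mitochondrial glutamyl-tRNA synthetase, which also charges the glutamine tRNA of mitochondria before a separate enzyme converts the amino acid. Its level was 74.3, 74.4 and 71.6 CPM in control replicates 1 to 3 and 63.0, 60.4 and 60.7 CPM in fluoxetine replicates 1 to 3, again without overlap (log2 fold change -0.26, SE 0.07, edgeR adjusted p = 0.0416). EARS2 shares 370 exon bases with UBFD1 on the other strand, which had the higher mean count, 2933 against 1358.

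The calls of MARS2 and EARS2 were lost in several fits that left out a library. MARS2 lost the call without control replicate 2 (edgeR adjusted p = 0.0552), fluoxetine replicate 1 (0.0959) or fluoxetine replicate 3 (0.0624). EARS2 kept it in 1 of the 6 fits that left out a library, the fit without control replicate 3. It was lost without control replicates 1 (0.0684) and 2 (0.0957), without fluoxetine replicates 1 (0.120), 2 (0.0552) and 3 (0.141), and with library size as the only scaling (0.0585).

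**Figure D3:**
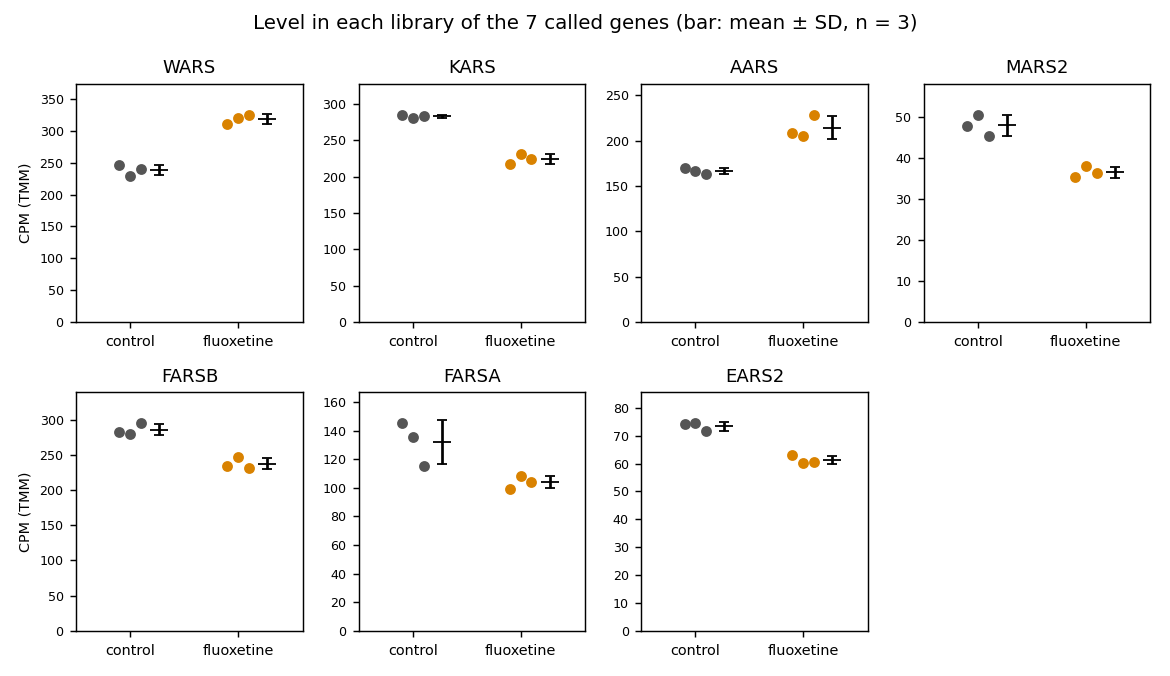
Level in CPM of the 7 called genes in each library (points), with the mean and SD of 3 libraries beside them; each vertical axis starts at 0. WARS and AARS are higher in all 3 fluoxetine libraries, and the other 5 are lower, with the narrowest gap between the groups for FARSA, whose lowest control library had 115 and highest fluoxetine library 108 CPM.

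The other 14 mitochondrial genes were not called, with log2 fold changes between -0.26 (YARS2) and 0.38 (SARS2). YARS2, LARS2, HARS2 and IARS2, the enzymes for tyrosine, leucine, histidine and isoleucine, were lower in every fluoxetine library than in every control library, with adjusted p-values of 0.136, 0.0944, 0.242 and 0.245 from edgeR. With MARS2 and EARS2, the groups did not overlap for 6 of the 16 mitochondrial genes (37.5%, near the 31.9% of all tested genes). IARS2 had 428, 452 and 483 CPM in control replicates 1 to 3 and 401, 423 and 419.7 CPM in fluoxetine replicates 1 to 3. The gap between the groups was small, from 428 to 423 CPM for IARS2 and from 26.7 to 26.2 CPM for YARS2. None of the 16 mitochondrial genes was called higher by edgeR, DESeq2 or limma-voom, and 0 were higher at an unadjusted p-value under 0.05, against 15.8% of all tested genes. The summed level of the mitochondrial genes was 957, 967 and 976 CPM in control replicates 1 to 3 and 852, 898 and 876 CPM in fluoxetine replicates 1 to 3. Without IARS2, which makes up much of that sum, it was 512 ± 17.8 CPM (SD, n = 3) in control and 461 ± 13.2 CPM (SD, n = 3) in fluoxetine libraries. The summed level of the cytosolic genes, 4507 ± 58.8 CPM (SD, n = 3) in control and 4418 ± 128 CPM (SD, n = 3) in fluoxetine libraries, overlapped between the groups.

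Among the cytosolic genes, 15 were not called, with log2 fold changes between -0.24 (HARS) and 0.12 (NARS). HARS, the histidine enzyme, had an adjusted p of 0.0755 from edgeR. It lies head to head with HARS2, with 437 exon bases shared on opposite strands. RARS, the cytosolic gene with the highest level per length, had 308, 298 and 319.6 CPM in control replicates 1 to 3 and 264, 284 and 266 CPM in fluoxetine replicates 1 to 3, without overlap (log2 fold change -0.19, edgeR adjusted p = 0.0990). The lowest, CARS, had 38.6, 35.7 and 31.6 CPM in control replicates and 31.6, 33.9 and 34.5 CPM in fluoxetine replicates 1 to 3, and its groups overlapped (log2 fold change -0.08). MARS, whose exons share 355 bases with those of DDIT3 on the other strand, had 176, 172 and 171 CPM in control replicates 1 to 3 and 142, 162 and 158 CPM in fluoxetine replicates 1 to 3. It was lower in each fluoxetine library, the direction opposite to that of DDIT3. EPRS, GARS, IARS, LARS, QARS and YARS had log2 fold changes of 0.03 to 0.06, smaller than their standard errors of 0.07 to 0.09.

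Of the 8 members held in the multi-synthetase complex, KARS was called lower and the other 7 (EPRS, IARS, LARS, QARS, MARS, RARS and DARS) were not called. The share called was thus 12.5%, against 13.1% of all tested genes in either direction and 5.32% called lower. The median log2 fold change was -0.04 over the complex members and -0.06 over the 12 other cytosolic genes. The scaffold genes of the complex, AIMP1, AIMP2 and EEF1E1, had log2 fold changes of -0.24, -0.19 and -0.29 with adjusted p-values of 0.0710, 0.411 and 0.220 from edgeR. Synthetases also fall into 2 structural classes with unrelated catalytic folds, and EPRS holds an enzyme of each. The 18 class I genes held 1 called higher (WARS, 5.56%) and 2 called lower (MARS2 and EARS2, 11.1%), with a median of -0.11. The 17 class II genes held 1 called higher (AARS, 5.88%) and 3 called lower (KARS, FARSA and FARSB, 17.6%), with a median of -0.13. Over all tested genes, 7.76% were called higher and 5.32% lower.

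A split by known regulation gave more distant medians. The 12 cytosolic genes that are widely described as ATF4 targets (AARS, CARS, EPRS, GARS, IARS, LARS, MARS, NARS, SARS, TARS, WARS and YARS) had a median log2 fold change of 0.04, near the 0.03 of all tested genes. Of these 12 genes, 8 were above 0 and 33.3% below 0, against 45.8% of all tested genes below 0. Of those above 0, EPRS, IARS, LARS and YARS were near 0 and changed sign under 3 or 4 of 13 alternatives. The groups did not overlap in 33.3% of the 12 genes, against 31.9% of all tested genes. This list held both upregulated members (16.7% of the list, against 7.76% of all tested genes). The 8 other cytosolic genes (DARS, FARSA, FARSB, HARS, KARS, QARS, RARS and VARS) had a median of -0.21, with 7 below 0 (87.5%). They held the 3 downregulated cytosolic members (37.5%, against 5.32% of all tested genes). The difference between these lists was not tested, since genes of a list are not replicates. ATF4 itself had 308, 278 and 233 CPM in control replicates 1 to 3 and 257, 287 and 232 CPM in fluoxetine replicates 1 to 3, with overlapping groups (log2 fold change -0.08, edgeR adjusted p = 0.674). The translation of ATF4 is not seen in such counts.

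Some of the cytosolic genes share a short promoter sequence. RefSeq promoter windows (250 bases before to 50 after a transcript start, GRCh38.p14) were found for 30 of the 36 genes, but not for AARS2, DARS, LARS, VARS, VARS2 and YARS. They were searched on both strands for TTGCATCA, the letters of the C/EBP-ATF composite element that ATF4 dimers are known to bind. The search was chosen after the fold changes were seen. The letters were in the windows of 6 of 16 cytosolic genes (37.5%) and 0 of 14 mitochondrial genes, and in 1.08% of all 27305 RefSeq genes with a window. The 30 bases around each match are given below on the gene's strand, with the matched letters in capitals, because they place the upregulated AARS beside genes that carry the same letters and were not called.
AARS (chr16:70289675-70289704, minus strand): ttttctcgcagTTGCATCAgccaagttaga
IARS (chr9:92293692-92293721, minus strand): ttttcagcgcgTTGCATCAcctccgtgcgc
MARS (chr12:57488053-57488082, plus strand): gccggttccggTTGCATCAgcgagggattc
CARS (chr11:3057407-3057436, minus strand): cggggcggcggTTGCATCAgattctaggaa
TARS (chr5:33440956-33440985, plus strand): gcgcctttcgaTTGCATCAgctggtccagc
NARS (chr18:57621804-57621833, minus strand): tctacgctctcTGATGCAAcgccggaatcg

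The match begins 187 bases before the start in AARS, and in the other 5 genes it begins between 13 bases before the start (IARS) and base 15 of the transcript (NARS), where it lies in the reverse orientation. Of the 6 genes, AARS was called higher, and NARS, IARS, CARS, TARS and MARS had log2 fold changes of 0.12, 0.04, -0.08, -0.13 and -0.17 without a call. WARS, the other upregulated gene, had no match in its window. The letters were thus present in called and uncalled genes alike.

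A second short sequence was looked for in the same way, CACGTG, the palindromic E-box that MYC and the lysosomal regulator TFEB are known to bind. It was in the windows of 3 of 14 mitochondrial genes (21.4%) and 1 of 16 cytosolic genes (6.2%), against 8.77% of all RefSeq genes with a window. The 3 mitochondrial genes included MARS2 and EARS2, the downregulated ones, and these windows are shown with the E-box in capitals.
MARS2 (chr2:197705347-197705374, plus strand): tgcgcctctcaCACGTGctgtcagaacg
EARS2 (chr16:23557349-23557376, minus strand): agggagaagccCACGTGtgctattccat
CARS2 (chr13:110706502-110706529, minus strand): gctgggatgcaCACGTGcttcgctaaca

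The E-box begins 11 bases before the start in MARS2, 15 bases before one of the EARS2 starts and 3 bases before the start in CARS2. CARS2 was at 0.07 on the log2 scale (edgeR adjusted p = 0.711), so genes with this sequence also differed among themselves. The cytosolic gene with an E-box was IARS, 186 bases before its start.

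To ask whether cytosolic and mitochondrial enzymes for the same amino acid moved unequally, the ratio of their counts was taken within each library, which needs no normalization. The 16 pairs cover 14 amino acids with a separate gene in each compartment, and EPRS set against both EARS2 and PARS2. The ratio did not overlap between the groups in 8 pairs (50%), and in all 8 it was higher with fluoxetine. Of single genes, 31.9% of all tested did not overlap, and the share over other gene pairs was not computed. In the other 8 it was lower on average with overlapping groups. An exact two-sided permutation test over 3 against 3 libraries cannot give a p-value below 0.1, which these 8 pairs reached (adjusted p = 0.2 over the 16 pairs).

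For WARS and WARS2 the ratio was 15.4, 14.0 and 16.4 in control replicates 1 to 3 and 21.9, 21.3 and 22.2 in fluoxetine replicates 1 to 3, a change of 0.52 on the log2 scale. WARS2 itself had 15.9, 16.5 and 14.7 CPM in control replicates 1 to 3 and 14.2, 15.0 and 14.6 CPM in fluoxetine replicates 1 to 3, with overlapping groups. The ratio of AARS to AARS2 was 7.74, 7.95 and 9.21 in control and 10.6, 11.2 and 13.6 in fluoxetine replicates 1 to 3, a change of 0.50 on the log2 scale. AARS2 was at 22.0, 20.9 and 17.7 CPM in control and 19.7, 18.4 and 16.8 CPM in fluoxetine replicates 1 to 3 and overlapped between the groups.

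In the pair of MARS and MARS2 both genes had lower means with fluoxetine, MARS2 by more, and the ratio was higher by 0.22 on the log2 scale. For EPRS and EARS2 the ratio was 5.58, 5.80 and 6.41 in control and 6.999, 6.80 and 8.05 in fluoxetine replicates 1 to 3. EPRS had 415, 432 and 459 CPM in control replicates 1 to 3 and 441, 410.2 and 488 CPM in fluoxetine replicates 1 to 3, with overlapping groups. The ratios of YARS to YARS2, NARS to NARS2, LARS to LARS2 and IARS to IARS2 were higher by 0.31, 0.29, 0.27 and 0.17 on the log2 scale. FARSA against FARS2 was different, since FARSA fell and FARS2 had a log2 fold change of -0.18 without a call. FARS2, the mitochondrial phenylalanine enzyme, had 16.1, 16.1 and 14.0 CPM in control replicates 1 to 3 and 11.96, 14.8 and 13.9 CPM in fluoxetine replicates 1 to 3, and the ratio changed by -0.15 on the log2 scale with overlapping groups. The ratio of SARS to SARS2 differed by -0.51 on the log2 scale, a size close to that of WARS to WARS2, but with an SD of 0.851 in the control libraries and overlapping groups, and without control replicate 2 the difference was -0.99.

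**Figure D4:**
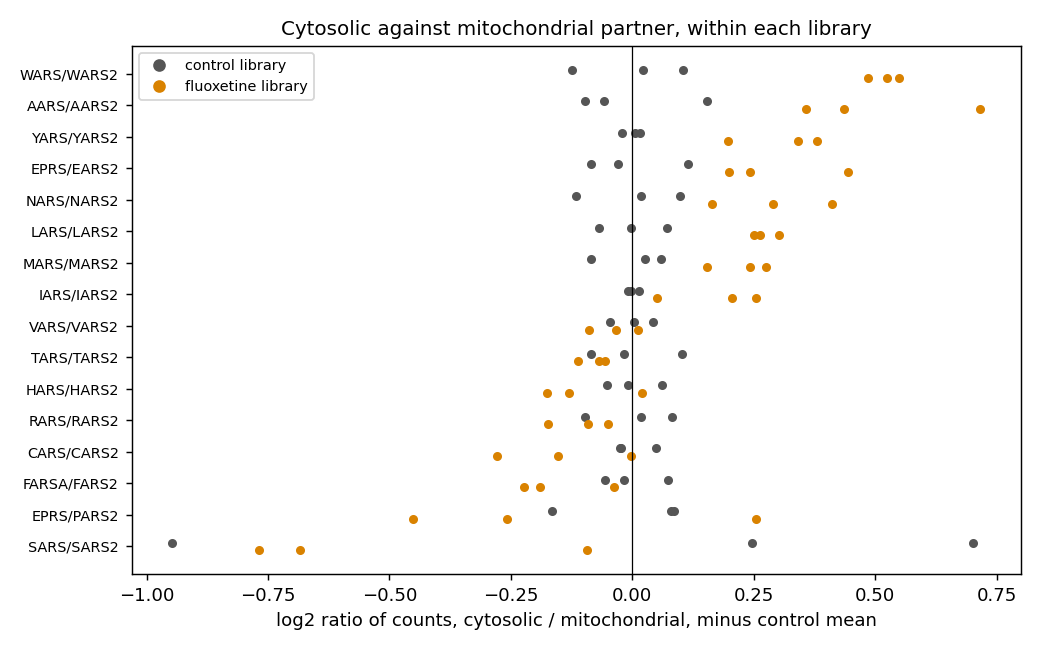
log2 ratio of counts of the cytosolic over the mitochondrial gene in each library for 16 pairs, less the mean of the control libraries, in order of the change. In the upper 8 pairs, from WARS/WARS2 down to IARS/IARS2, all fluoxetine libraries lie to the right of all control libraries, and in the lower 8 the groups overlap.

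The genes that act before and after the synthetases were mostly lower as well. Of 22 genes of tRNA maturation and export, 4 were called lower (18.2%, against 5.32% of all tested genes) and 18 were not called, with a median log2 fold change of -0.22. Without control replicate 3 the count was 10, without control replicate 1 it was 2, and without control replicate 2, fluoxetine replicate 1 or fluoxetine replicate 3 it was 1. Over all tested genes, 2006 were called lower without control replicate 3 and 163 without fluoxetine replicate 1, against 833 with all libraries. The 4 called genes were POP1, a protein of RNase P, which trims the 5′ end of tRNAs (-0.58, edgeR adjusted p = 0.00503), ELAC2, which cuts the 3′ end (-0.35), TSEN54 of the tRNA splicing endonuclease (-0.62) and TRMT10C of mitochondrial RNase P (-0.28). XPOT, the tRNA exporter, was at 0.13 on the same scale (edgeR adjusted p = 0.281). The groups did not overlap for 4 of the 22 genes (18.2%, against 31.9% of all tested genes). Those of the called TSEN54 overlapped, with control replicate 3 at 19.5 and fluoxetine replicate 2 at 19.7 CPM. Of 19 other charging and delivery factors, EEF1D (-0.50, edgeR adjusted p = 0.0157) and EEF1B2 (-0.34, adjusted p = 0.0280), which reload the elongation factor that carries charged tRNAs to the ribosome, were called lower (10.5%) and 17 were not called, with a median of -0.18. That count was 7 without control replicate 3, 5 without fluoxetine replicate 2, 1 without control replicate 1 or fluoxetine replicate 3, and 0 without control replicate 2 or fluoxetine replicate 1. EEF1G was not analysed here.

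Mitochondrial ribosomal protein genes, the partners of the mitochondrial synthetases in translation, had a median log2 fold change of -0.28 over 76 tested of 78 genes. Of these, 13 were called lower (17.1%, against 5.32% of all tested genes) and 63 were not called. The log2 fold change was below 0 in 70 of the 76 (92.1%, against 45.8% of all tested genes). The called genes had log2 fold changes from -0.59 (MRPL16) to -0.28 (MRPS18B). MRPL16 had 59.9, 53.0 and 42.9 CPM in control replicates 1 to 3 and 34.5, 38.3 and 30.8 CPM in fluoxetine replicates 1 to 3 (edgeR adjusted p = 0.0163). As with FARSA, control replicate 3 was the control library closest to the fluoxetine libraries. Without control replicate 3, 45 of these genes were called, and 26 without fluoxetine replicate 2. The count was 1 without control replicate 1 or fluoxetine replicate 3, and 0 without control replicate 2 or fluoxetine replicate 1.

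In the integrated stress response and the ATF4 targets of amino acid supply, 7 of 32 genes were called higher (21.9%, against 7.76% of all tested genes). In the same list, 2 were called lower (6.25%, near the 5.32% of all tested genes) and 23 were not called. The median log2 fold change of the list was 0.15. DDIT3, which encodes CHOP, had 4.54, 3.39 and 3.28 CPM in control replicates 1 to 3 and 8.80, 7.91 and 9.55 CPM in fluoxetine replicates 1 to 3, without overlap (log2 fold change 1.23, SE 0.17, edgeR adjusted p = 0.00142). NUPR1 (2.997), ATF3 (0.94), EIF2AK3, which encodes the ER stress kinase PERK (0.91), STC2 (0.50), TRIB3 (0.48) and ALDH1L2 (0.44) were also called higher on the log2 scale. SLC1A5, a glutamine transporter (-0.40), and MTHFD2, an enzyme of mitochondrial folate metabolism (-0.30), were called lower. ASNS, the asparagine synthetase, held 11, 9 and 16 counts in control and 21, 9 and 19 counts in fluoxetine replicates 1 to 3 (edgeR adjusted p = 0.155), and it shares 44.6% of its exon bases with another gene on the same strand, so its level is uncertain. The count of called genes in this list was 5 without fluoxetine replicate 1.

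**Figure D5:**
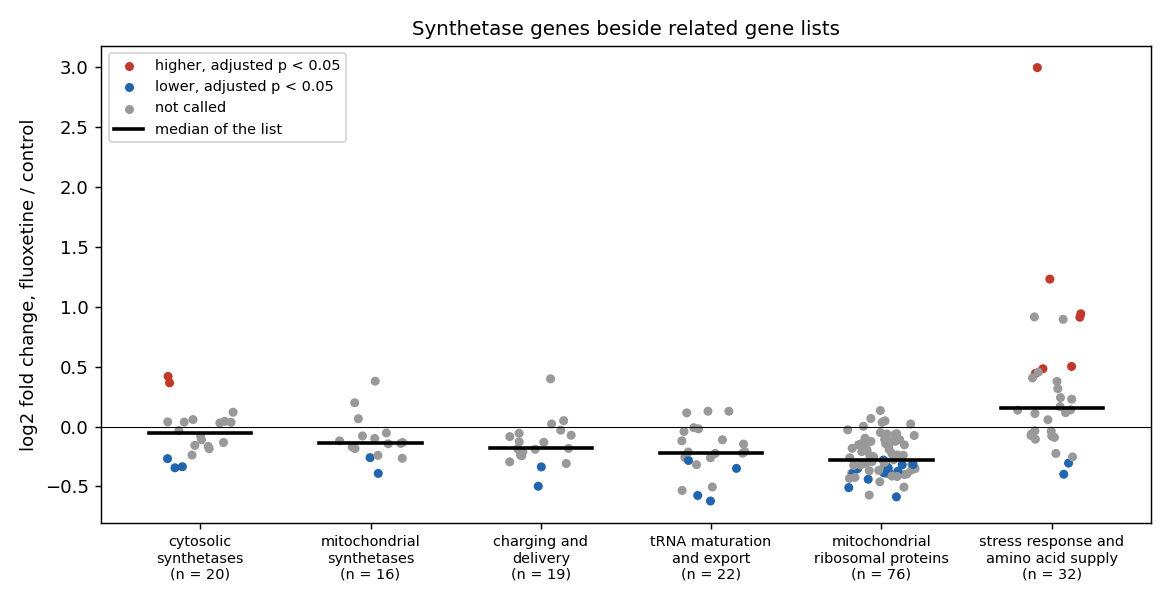
log2 fold change of each gene (points, coloured by the edgeR call) in the cytosolic and mitochondrial synthetases and 4 related lists, with the median of each list as a black line. The synthetases lie within 0.42 of 0 on the log2 scale, the mitochondrial ribosomal proteins have the lowest median (-0.28), and the stress response list reaches 2.997 with NUPR1.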

How the data were processed

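RNA was sequenced from H460 cells, 3 control libraries and 3 treated with 20 µM fluoxetine for 24 h, grouped by the treatment label, as paired-end reads of 150 bases. The authors deposited 1 table of raw read counts per gene and library, not normalized or pooled. It also holds the authors' fold changes and p-values, which were not used. The submitters' processing notes name fastp 0.20.0, HISAT2 2.1.0, HTSeq 0.10.0 and DESeq2 1.18.1, and the settings and annotation are not given in the sources used here. Of the 31635 genes found in GENCODE release 29 (GRCh38), 96.81% had the same start and end.

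The tests on the counts ran in edgeR 4.0.16 under R 4.3.3 (quasi-likelihood, TMM factors 0.985 to 1.02, filterByExpr, Benjamini-Hochberg adjustment over 15646 genes). The fit had no covariate. A gene was called at an adjusted p-value under 0.05. CPM are TMM-normalized. At these depths, 3 counts are worth 0.108 to 0.186 CPM, for counting error alone. Every member was counted, and library values were given for the called members, their partners in the other compartment, MARS, and the members highest and lowest in level per length in each compartment. From related lists, up to 5 called genes by smallest p-value, ATF4, DDIT3 and ASNS were to be named. AIMP1, AIMP2, EEF1E1, XPOT, ALDH1L2, TRIB3, MTHFD2, SLC1A5 and MRPS18B were named outside it after their values were seen, as were the promoter searches. The members, lists and this rule were chosen with earlier results of these data known. Replicates differed by more than sampling noise (chi-square per degree of freedom 3.49 to 21.7). Scripts were tested on simulated counts. Alternatives were DESeq2 1.42.0, limma-voom (limma 3.58.1), RLE or library-size scaling, no filter, a minimum of 10 counts per library, a replicate block, and each library left out in turn. The ratios were also taken with 0.5 added counts, with the block and with a library left out.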

Additional observations from a re-analysis of the deposited data

How the results depend on the processing

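Over 13 alternatives for each gene (12 for SARS2, which at least 10 counts in every library removes), 423 of 467 values kept their direction and side of the threshold, 19 lost a call, 8 gained one and 17 changed sign. DESeq2, limma-voom, RLE scaling and at least 10 counts in every library called the same 7 synthetase genes. Genes that gained a call were HARS (no filter, the block, without control replicate 3 or fluoxetine replicate 2), YARS2 (the block, without fluoxetine replicate 2), LARS2 (the block) and VARS (without control replicate 3). Sign changes were all of genes near 0. LARS was at -0.0052 with no filter on low counts. With a library left out, the lowest values were -0.0515 for CARS2, -0.0553 for EPRS, -0.0374 for IARS, -0.0534 for LARS, -0.0506 for QARS and -0.0377 for YARS, and the highest 0.11, 0.061, 0.0502, 0.0653, 0.071 and 0.0534.

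The mitochondrial genes called lower numbered 1 with library size only and 4 with the replicate block, and 0 to 2 with a library left out. With a library left out, the cytosolic genes called higher numbered 1 to 2 and those called lower 0 to 5, and the cytosolic median lay between -0.10 and -0.051. In the related lists, the charging and delivery factors called numbered 4 with no filter on low counts and 6 with the replicate block, and 0 to 7 with a library left out. The tRNA maturation genes called numbered 2 with limma-voom and 8 with the block, and 1 to 10 with a library left out. The mitochondrial ribosomal protein genes called numbered 23 with DESeq2, 40 with no filter and 43 with the block, and 0 to 45 with a library left out. The stress response genes called numbered 5 to 12 with a library left out. The cause of these shifts was not tested. Without control replicate 3, 1627 genes of the whole table were called higher and 2006 lower, against 1214 and 833 with all libraries. Without fluoxetine replicate 1, 409 genes of the whole table were called higher and 163 lower.

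Libraries with the same number correlated by 0.03, 0.116 and 0.392 in their deviations from the group means. Libraries with different numbers ranged from -0.38 (control replicate 3 with fluoxetine replicate 2) to 0.32. Deviations within a group of 3 sum to 0, so these values depend on each other. Neither they nor the labels settle whether libraries with the same number were paired. Control replicate 1 correlated best with fluoxetine replicate 2 (0.32). With the replicate block, 2231 genes were called higher and 1787 lower, against 1214 and 833 without it. The 16 ratio pairs kept their direction under all 8 alternatives. The block could not change it, since the mean of the paired differences equals the difference of the group means. For EPRS and PARS2 the change was close to 0 (-0.0014) without fluoxetine replicate 1. The standard errors, which hold the spread between libraries as well as counting error, were 0.06 to 0.18 on the log2 scale for members other than SARS2 (0.47).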
